A study of Homo sapiens with 12 samples.

Results

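The genes examined were 9 that control the exit of cells from the G1 phase, among the 33514 gene symbols counted: the D cyclins CCND1, CCND2 and CCND3, the E cyclin CCNE1, the CDK inhibitors of the CIP/KIP family CDKN1A (p21), CDKN1B (p27) and CDKN1C (p57), and those of the INK4 family CDKN2A (p16) and CDKN2B (p15). They were chosen by name, and all 9 were found in each of the 3 count tables. Single-cell RNA sequencing (10x Genomics 3′ chemistry) had been performed on the cell lines SCC1 (UM-SCC-1), SCC25 and SCC6 (UM-SCC-6), 3 established lines of head and neck squamous carcinoma (HNSCC). Cells of each line received 100 nM cetuximab, an antibody against the epidermal growth factor receptor, every day for 5 days, or PBS as the untreated control. Each of the 6 groups had 2 replicates, which gave 12 samples. Each line stands for 1 tumour and was grown as a culture without the stromal and immune cells of a tumour.

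D cyclins bind CDK4 and CDK6 and E cyclins bind CDK2. The active kinases phosphorylate RB, which releases E2F factors and lets cells enter S phase. INK4 inhibitors bind CDK4 and CDK6, whereas CIP/KIP inhibitors bind cyclin-CDK complexes, CDK2 complexes in particular. In HNSCC, gain of the 11q13 region with CCND1 and loss of the 9p21 region with CDKN2A are common, and EGFR signalling is known to raise D cyclin levels through the MAPK pathway.

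Between 961 and 2854 cells per sample had been sequenced to 57057402 to 112170073 unique molecular identifiers (UMIs), with a median of 24079 to 54864 UMIs per cell. UMIs were summed over the cells of each sample, and levels are given as CPM, the UMIs of a gene per 1000000 UMIs of the sample, scaled with TMM factors, which ranged from 0.835 to 1.14. A gene was called changed when the FDR of the edgeR quasi-likelihood test over 17897 genes was below 0.05. A summed level cannot tell more cells with a transcript from more transcripts per cell. A level is compared between samples and not between genes. Keratinocyte and epithelial markers EPCAM, KRT17 and SFN were present in all 12 samples, although KRT5 and KRT14 reached no more than 4.47 and 2.52 CPM in SCC6 and were at or above 324 CPM in the other lines. PTPRC, which marks leucocytes, and the T cell gene CD3E did not exceed 0.0691 CPM in any sample, while CD68 reached 205.0 CPM in SCC25.

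Untreated cells of the 3 lines were compared first, to learn which cyclins and inhibitors each line expresses before the antibody. CCND1, the D cyclin of most epithelial cells, had a level of 463 and 449 CPM in the SCC1 replicates, 332 and 291 CPM in SCC6, and 889 and 959 CPM in SCC25. The 3 lines did not overlap. SCC25 was above SCC1 (log2 difference of SCC1 minus SCC25 -1.02 ± 0.17 SE, FDR = 0.0012) and above SCC6 (SCC6 minus SCC25 -1.57 ± 0.18, FDR = 9.7e-05). SCC1 was above SCC6 by 0.55 ± 0.17 on the log2 scale (FDR = 0.028), a call that was lost without SCC1 PBS replicate 1 (FDR = 0.123), SCC1 PBS replicate 2 (FDR = 0.101) or SCC6 PBS replicate 2 (FDR = 0.126) and with no filter on low counts (FDR = 0.0874). In these untreated comparisons 40.8% of all genes differed between SCC1 and SCC25, 40.2% between SCC1 and SCC6 and 40.9% between SCC6 and SCC25, so a difference between lines was common. Of the 9 genes, 6, 7 and 6 were called in these comparisons.

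CCND2, an alternative D cyclin, was present in SCC1 with 36.1 and 28.0 CPM and in SCC25 with 28.5 and 23.0 CPM, and these lines did not differ by the test (0.32 ± 0.30, FDR = 0.43). In SCC6 the untreated replicates held 1 and 4 UMIs of CCND2. Over both replicates, SCC1 exceeded SCC6 by a ratio of 1106 (95% counting interval 474 to 3409) and SCC25 by a ratio of 892 (382 to 2749), intervals that cover counting error alone. CCND3, the third D cyclin, was at 60.8 and 61.9 CPM in SCC1, 41.1 and 38.8 CPM in SCC6, and 33.1 and 37.0 CPM in SCC25. SCC1 was highest, by 0.81 ± 0.22 over SCC25 (FDR = 0.015) and by 0.62 ± 0.22 over SCC6 (FDR = 0.047). The difference from SCC6 was past the threshold in 2 of 10 alternatives and in none that left out a sample (FDR from 0.0564 to 0.161), and that from SCC25 was lost without SCC1 PBS replicate 1 (FDR = 0.0631), SCC1 PBS replicate 2 (FDR = 0.0729) or SCC25 PBS replicate 1 (FDR = 0.0832). SCC6 and SCC25 did not differ beyond their spread (0.19 ± 0.22, FDR = 0.53).

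CCNE1, the cyclin that activates CDK2 at the G1/S transition, was measured at 7.24 and 13.6 CPM in SCC6, 6.23 and 5.80 CPM in SCC1, and 3.11 and 3.27 CPM in SCC25. The SCC6 replicates were far apart, yet both were above every SCC25 value (1.70 ± 0.34, FDR = 0.0028). SCC1 was above SCC25 by 0.91 ± 0.33 (FDR = 0.049), and this call was lost when any of the 4 PBS replicates of these lines was left out (FDR between 0.118 and 0.154) and with DESeq2 size factors (FDR = 0.059). SCC1 and SCC6 did not pass the test (-0.79 ± 0.33, FDR = 0.079), but did without SCC6 PBS replicate 1 (-1.17, FDR = 0.0217).

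Among the CIP/KIP inhibitors, CDKN1A, the inhibitor induced by p53 and by other stimuli, was lowest in SCC1 with 32.9 and 31.7 CPM, against 48.4 and 65.8 CPM in SCC6 and 55.1 and 71.6 CPM in SCC25. SCC1 was lower than SCC25 (-0.97 ± 0.23, FDR = 0.0078) and lower than SCC6 (-0.82 ± 0.23, FDR = 0.018), while SCC6 and SCC25 could not be ordered (-0.15 ± 0.23, FDR = 0.64). Scaled by library size alone, the difference of CDKN1A between SCC1 and SCC6 was -0.49 (FDR = 0.123). It was also lost without SCC1 PBS replicate 1 (FDR = 0.084), SCC1 PBS replicate 2 (FDR = 0.0988) or SCC6 PBS replicate 2 (FDR = 0.118), and that from SCC25 without SCC1 PBS replicate 2 (FDR = 0.0585) or SCC25 PBS replicate 2 (FDR = 0.0565). CDKN1B, a p27 protein whose amount is known to be set largely by degradation, was similar in all untreated samples, between 15.8 CPM in SCC25 and 25.5 CPM in SCC6, and none of its 3 comparisons passed (lowest FDR = 0.09). CDKN1C, an imprinted inhibitor at 11p15, was at 0.252 and 0.346 CPM in SCC1, 3.16 and 2.23 CPM in SCC6, and 12.6 and 10.4 CPM in SCC25. This order held by the test in every step: SCC25 was above SCC6 (SCC6 minus SCC25 -2.09 ± 0.30, FDR = 0.00041) and SCC6 above SCC1 (SCC1 minus SCC6 -3.16 ± 0.34, FDR = 5.7e-05).

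CDKN2A and CDKN2B were all but absent from SCC6, where another gene of the INK4 family, CDKN2D, was at 78.1 and 69.1 CPM. CDKN2A was at 116 and 108 CPM in SCC1 and at 0.436 and 0.428 CPM in SCC25, and not a single UMI was counted in SCC6. SCC1 was above SCC25 by 8.02 ± 0.35 on the log2 scale (FDR = 3e-06). Against a floor of 3 UMIs over both untreated SCC6 replicates, SCC1 was at least 6541-fold higher and SCC25 at least 25.3-fold higher, and the lower ends of the 95% counting intervals of these ratios were 5319 and 20.1. All 4 SCC6 samples together had 9724 cells without a CDKN2A UMI, which allows a share of up to 0.0309% of cells with a UMI. In SCC25, 195 UMIs were spread over 194 of 8920 cells. CDKN2B was present in SCC1 (23.1 and 17.6 CPM) and in SCC25 (19.6 and 43.7 CPM), which did not differ by the test (-0.64 ± 0.48, FDR = 0.32), and SCC6 held 1 UMI in 9724 cells. On that 1 UMI, the ratio of SCC1 to SCC6 was 3510 with a counting interval of 630 to 138685. CDKN2A also encodes p14ARF, whose transcript ends in the same exons as that of p16, and counts at the 3′ end cannot tell both apart.

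**Figure D1:**
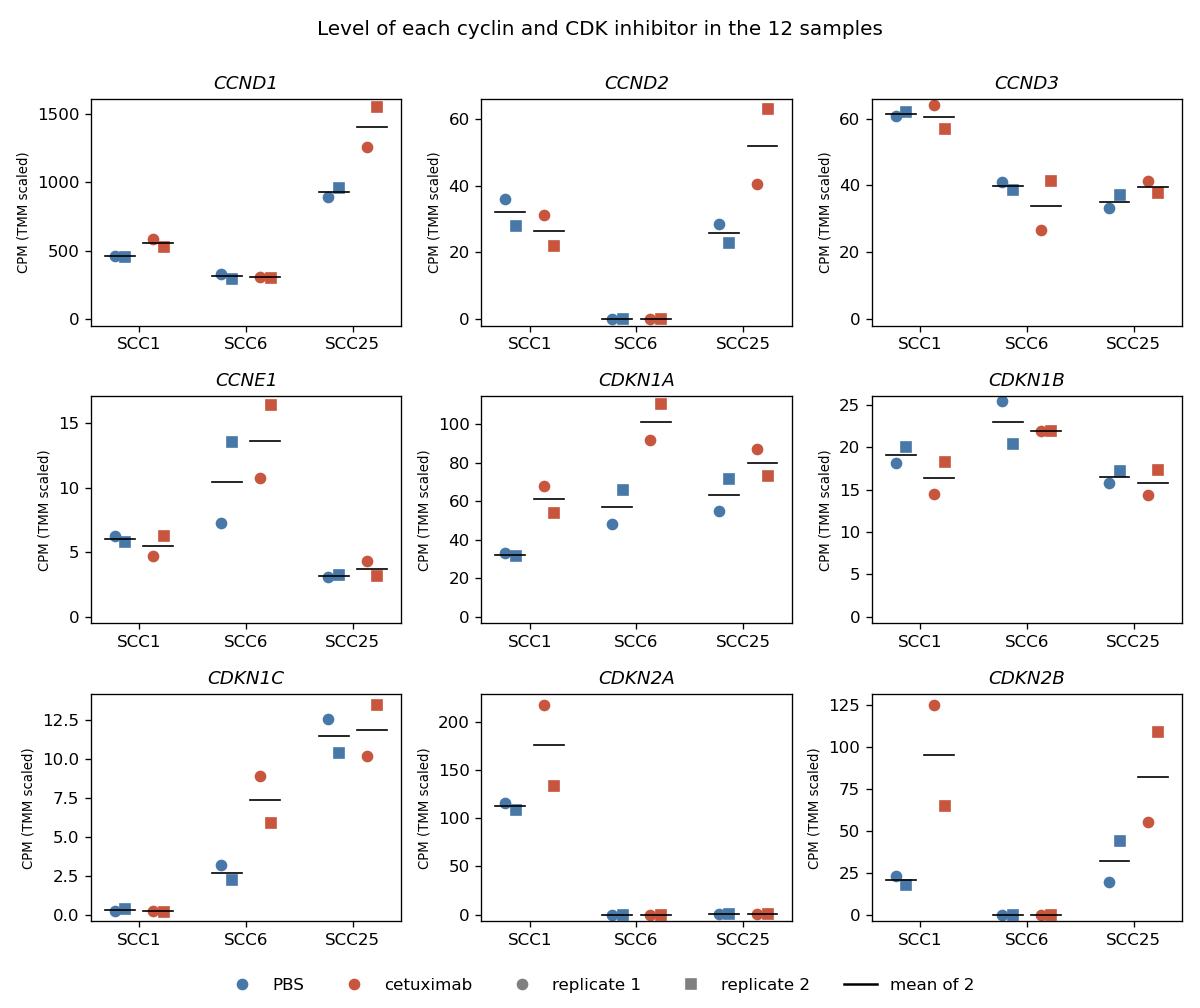
Level of each of the 9 genes in CPM (TMM scaled, linear axis) by line, with PBS samples in blue, cetuximab samples in red, circles for replicate 1, squares for replicate 2 and a bar at the mean of 2. CDKN2A is at 0 in SCC6, CCND1 is highest in SCC25, and both cetuximab samples lie above both PBS samples for CDKN1A in all 3 lines, narrowly in SCC25.

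CCND1, CDKN2A and CDKN2B were then read beside their neighbours on the chromosome. CCND1 lies at chr11:69641156-69654474 of GRCh38. Of its 8 tested neighbours at 11q13, 7 were higher in untreated SCC25, the line with most CCND1, than in both other lines (each FDR at or below 0.029). Among all genes, 40.8% differed between SCC1 and SCC25 and 40.9% between SCC6 and SCC25, in either direction. FADD, an adaptor of death receptors, was at 212 and 290 CPM in SCC25, against 37.4 and 48.2 CPM in SCC1 and 16.0 and 33.5 CPM in SCC6. CTTN, which encodes the actin-binding protein cortactin, was at 517 and 424 CPM in SCC25, 163 and 143 CPM in SCC1 and 97.0 and 81.7 CPM in SCC6. The chloride channel gene ANO1 was at 29.5 and 38.5 CPM in SCC25 and no higher than 0.585 CPM in the untreated samples of the other lines. For ORAOV1, PPFIA1 and TPCN2 the log2 differences of SCC1 minus SCC25 were -1.94, -1.66 and -1.26. FGF19 was at 1.22 and 7.43 CPM in SCC25 and no higher than 0.358 CPM in the untreated samples of the other lines. Its difference from SCC6 was lost without either SCC6 PBS replicate or SCC25 PBS replicate 2 (FDR from 0.116 to 0.236), and that from SCC1 without either SCC1 PBS replicate (FDR = 0.0505 and 0.0558). The SCC1 difference was also lost for PPFIA1 without SCC1 PBS replicate 2 or SCC25 PBS replicate 1 (FDR = 0.0567 and 0.0679) and for TPCN2 without SCC1 PBS replicate 1 (FDR = 0.0549). MYEOV, which lies between TPCN2 and CCND1, went the opposite way, with 1.44 and 1.21 CPM in SCC25 and 14.4 and 14.6 CPM in SCC6. FGF3 and FGF4 were at 0 in all 12 samples. DNA copy number was not measured.

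CDKN2A (chr9:21967752-21995324) and CDKN2B (chr9:22002903-22009313) lie side by side between MTAP, a gene of methionine salvage (chr9:21802636-21941115), and DMRTA1 (chr9:22446824-22455740). In untreated SCC6, where CDKN2A was at 0, MTAP was at 46.3 and 44.5 CPM, above SCC1 (19.3 and 21 CPM, FDR = 0.0013) and above SCC25 (9.40 and 8.65 CPM, FDR = 2.4e-05). DMRTA1 was at 3.94 and 3.90 CPM in SCC6, also above SCC1 (FDR = 0.0046) and SCC25 (FDR = 0.0011). The antisense RNA CDKN2B-AS1 (chr9:21994791-22128142), which spans CDKN2B on the other strand, was at 0.656 and 0.849 CPM in SCC6 and did not differ between lines (lowest FDR = 0.11). The genes on either side of the pair were thus counted in SCC6, and the pair itself was not, apart from 1 UMI of CDKN2B. ELAVL2, farther away, was at 8.28 and 6.69 CPM in SCC6, between SCC1 (3.73 and 2.70 CPM) and SCC25 (15.3 and 12.2 CPM). Whether counting used the strand was not given in the sources used here, so reads from CDKN2B and CDKN2B-AS1 may not be fully separated.

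**Figure D2:**
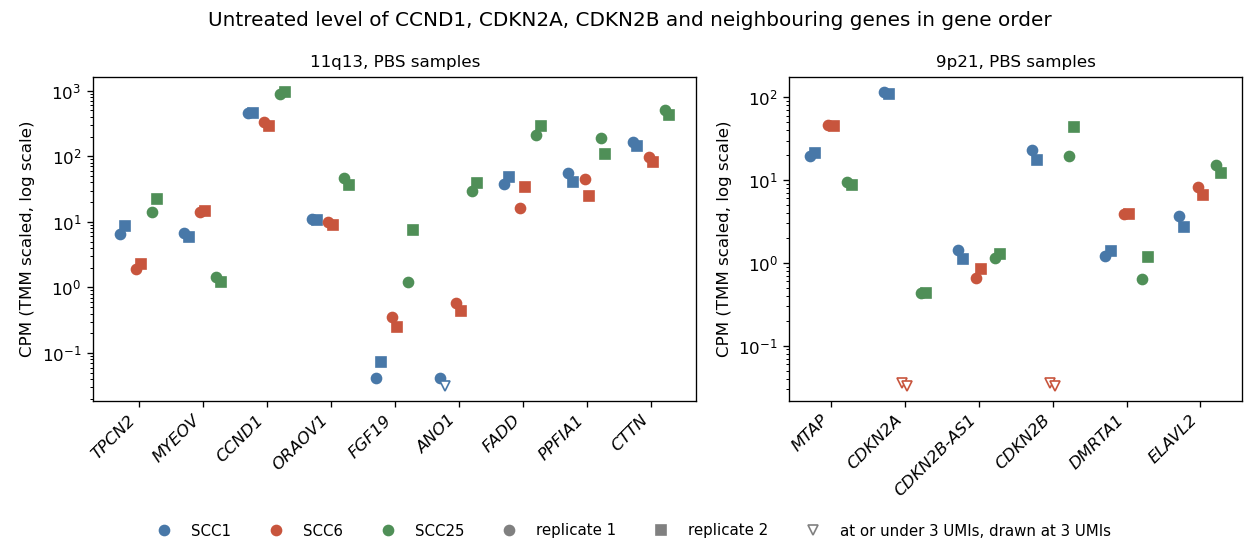
Untreated level in CPM (TMM scaled, log axis) of CCND1, CDKN2A, CDKN2B and their tested neighbours in the order of the genome, by line, with circles for replicate 1 and squares for replicate 2. Open triangles mark samples below the level of 3 UMIs, drawn at that level, as for CDKN2A and CDKN2B in SCC6. ANO1 and FGF19 in SCC1 replicate 1 lie at that level (0.0419 CPM) and have filled circles. SCC25 lies highest for CCND1, FADD and CTTN.

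The neighbours of CCND2, CCNE1 and CDKN1C were read in the same way. TIGAR, next to CCND2, was at 6.77 and 13.5 CPM in SCC6, where CCND2 was near 0, and at 22.1 and 24.5 CPM in SCC1 (FDR = 0.024), a call lost without either SCC1 PBS replicate or SCC6 PBS replicate 1 (FDR from 0.0636 to 0.152). PARP11 was also lowest in SCC6, at 1.42 and 1.21 CPM against at least 3.48 CPM in the other untreated samples. RAD51AP1 did not differ between lines (lowest FDR = 0.565) and was higher in replicate 2 than in replicate 1 of all 6 groups, as was POP4 near CCNE1. URI1, next to CCNE1, was at 67.0 and 52.4 CPM in SCC6, 54.1 and 42.3 CPM in SCC25 and 26.0 and 20.4 CPM in SCC1. C19orf12 and PLEKHF1 were lowest in SCC1 too, at 9.95 and 9.22 CPM and at 3.52 and 4.88 CPM, and SCC25, the line with least CCNE1, had most PLEKHF1 (32.0 and 47.0 CPM). Near CDKN1C, the imprinted transcript KCNQ1OT1 was lower in SCC1 (11 and 10.9 CPM) than in SCC6 (FDR = 0.0022) and SCC25 (FDR = 0.0039), as CDKN1C was. SCC25 had most PHLDA2 (265 and 224 CPM), but its calls against SCC1 and SCC6 were not kept in every fit that left out a PBS sample. SLC22A18 passed in no comparison (lowest FDR = 0.0659). NAP1L4 was between 63.2 and 112 CPM in untreated samples and was called lower in SCC1 than in SCC25. Its log2 difference was -0.735 to -0.537 with a PBS sample left out. This call was lost with library size alone and with no filter on low counts.

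The second question was how 5 days of cetuximab changed these genes. In the fit across the 3 lines, CDKN1A and CDKN2B rose, the latter from SCC1 and SCC25 alone as SCC6 had 1 UMI of it, and none of the 9 genes was called lower. The 2 of 9 called genes compare with 3.67% of all genes called across lines (453 higher and 203 lower of 17897). The same-numbered samples of a line deviated together, and with the replicate number as a block CDKN2A was called too, 3 of 9 genes against 11.6% of all genes. Without the block, the median log2 change of the 9 genes across lines was 0.44, beside 0.01 over all genes tested. This median is the value of CCND2, which did not pass (FDR = 0.39). Taken line by line, only SCC25 had a median of the 9 genes above 0 (0.34). That of SCC1 was -0.02, and that of SCC6, where CDKN2A had no UMI, was 0. In the same samples the summed level of 4 fibroblast markers was higher with cetuximab, at 15.2 to 16.4 CPM after 7.22 to 7.50 CPM in SCC1, 20.3 to 24.3 CPM after 1.06 to 2.91 CPM in SCC6 and 17.4 to 19.8 CPM after 8.56 to 9.06 CPM in SCC25. Of these markers DCN did not exceed 2.32 CPM and PDGFRB 1.36 CPM in any sample, so the sums were mostly collagen. COL1A1 was at 22.6 and 18.8 CPM in treated SCC6 after 1.03 and 2.75 CPM, and COL1A2 did not exceed 0.0553 CPM there. In SCC1 COL1A2 was at 10.3 and 13.4 CPM after 4.69 and 4.39 CPM, and COL1A1 lay between 2.70 and 3.61 CPM. In SCC25 COL1A1 was at 16.5 and 12.5 CPM after 6.28 and 5.44 CPM. The part of these markers in the results was not tested.

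CDKN2B, the p15 inhibitor of CDK4 and CDK6, was at 125 and 64.6 CPM in cetuximab-treated SCC1 after 23.1 and 17.6 CPM in PBS, and at 55.4 and 109 CPM in treated SCC25 after 19.6 and 43.7 CPM. In both lines every treated sample was above every untreated sample. With 2 samples a group, unchanged genes can separate in this way too. The share of all genes that did so is not given, here or for the genes below. The ratio of the same-numbered samples was 5.40 and 3.67 in SCC1 and 2.83 and 2.49 in SCC25, higher in 4 of 4 pairs. Across lines the log2 change was 1.76 ± 0.35 (FDR = 0.02), to which SCC6 added nothing. This call was lost without SCC1 PBS replicate 1 (1.72, FDR = 0.0583), SCC1 PBS replicate 2 (1.58, FDR = 0.0754), SCC1 cetuximab replicate 1 (1.45, FDR = 0.0523) or SCC25 cetuximab replicate 2 (1.64, FDR = 0.0533), with the same direction each time. Within SCC1 alone the change was 2.22 ± 0.49 (FDR = 0.2), and within SCC25 it was 1.37 ± 0.48 (FDR = 0.74). The replicate block brought both past the threshold, at 2.15 ± 0.17 (FDR = 0.0027) for SCC1 and 1.41 ± 0.17 (FDR = 0.019) for SCC25. SCC1 was also called by DESeq2 (FDR = 0.00309) and with no filter on low counts (FDR = 0.000845).

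CDKN1A, the p21 inhibitor, was at 68.1 and 54.1 CPM in treated SCC1 (32.9 and 31.7 CPM in PBS), 91.6 and 111 CPM in treated SCC6 (48.4 and 65.8 CPM in PBS), and 87.1 and 73.1 CPM in treated SCC25 (55.1 and 71.6 CPM in PBS). Treated and untreated samples overlapped in none of the lines, and the treated sample was higher in 6 of 6 pairs. The share of all genes with this pattern is not given. In SCC25 the separation was narrow, with a lowest treated value of 73.1 CPM and a highest untreated value of 71.6 CPM. The smallest ratio, 1.02, was that of SCC25 replicate 2, and the largest, 2.07, that of SCC1 replicate 1. Across lines CDKN1A rose by 0.69 ± 0.14 (FDR = 0.024). The value stayed between 0.62 and 0.80 under all 19 alternatives, but the call was lost without SCC1 PBS replicate 1 (FDR = 0.0601), SCC1 PBS replicate 2 (FDR = 0.075), SCC1 cetuximab replicate 1 (FDR = 0.064), SCC6 PBS replicate 1 (FDR = 0.0545), SCC6 PBS replicate 2 (FDR = 0.0522) or SCC6 cetuximab replicate 2 (FDR = 0.0695). Within lines no call was made, as SCC1 changed by 0.92 ± 0.23 (FDR = 0.24), SCC6 by 0.82 ± 0.23 (FDR = 0.081) and SCC25 by 0.34 ± 0.23 (FDR = 0.96). The replicate block brought SCC1 (0.91 ± 0.17, FDR = 0.028) and SCC6 (0.84 ± 0.17, FDR = 0.013) past the threshold, as did DESeq2 (FDR = 0.0228 and 0.0204), and library size alone did so for SCC6 (FDR = 0.0379).

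For CDKN1A and CDKN2B, called higher across lines without the block, the 250 bases before their RefSeq transcript start are shown 5′ to 3′ (GRCh38.p14). Capitals mark matches to the GC box GGGCGG on either strand, the letters to which SP1-family factors bind. CDKN2B had no UMI in treated SCC6, and shared control of both genes was not tested. The CDKN1A window is chr6:36678464-36678713 on the plus strand and the CDKN2B window is chr9:22009306-22009555 on the minus strand.
CDKN1A: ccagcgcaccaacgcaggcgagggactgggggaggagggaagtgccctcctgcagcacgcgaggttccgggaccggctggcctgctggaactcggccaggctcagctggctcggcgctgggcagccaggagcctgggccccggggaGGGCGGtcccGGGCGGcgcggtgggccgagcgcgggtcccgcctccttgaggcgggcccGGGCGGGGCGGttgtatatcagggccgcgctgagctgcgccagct
CDKN2B: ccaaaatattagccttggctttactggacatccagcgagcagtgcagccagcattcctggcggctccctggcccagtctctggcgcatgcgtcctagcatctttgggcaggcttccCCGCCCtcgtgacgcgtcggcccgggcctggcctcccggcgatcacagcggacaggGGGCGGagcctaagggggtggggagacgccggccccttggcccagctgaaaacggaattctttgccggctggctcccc
The CDKN1A window held 4 matches, a pair of which overlap, and the CDKN2B window 2, and such a match was present in 42.6% of 35116 promoter windows of the same length. Neither held the TATA box letters TATAAA, which 10.7% of windows did. RefSeq promoter windows were also matched for CCND3, CCNE1, CDKN1B and CDKN2A. The CCNE1 window held 7 matches, CCND3 windows 1, 2 and 3 held 5, 2 and 0, the CDKN1B window 1, and CDKN2A windows 1 and 2 held 0 and 1. Such matches were thus not particular to the genes that rose. These matches describe letters and not binding, which was not measured.

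CDKN2A was at 218 and 134 CPM in treated SCC1, above the 116 and 108 CPM of PBS. In SCC25 it was at 0.684 and 0.563 CPM after 0.436 and 0.428 CPM. The change across lines did not pass (0.59 ± 0.18, FDR = 0.1) unless the replicate block was used (0.57 ± 0.14, FDR = 0.044). Treated SCC6 had no UMI of CDKN2A, as untreated SCC6.

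CDKN1C rose in SCC6. It was at 8.87 and 5.86 CPM in treated SCC6 and at 3.16 and 2.23 CPM in PBS, with ratios of 2.81 and 2.63, and the change of 1.45 ± 0.29 was called (FDR = 0.026). It was the single call of the 9 genes within a line, where 3.81% of all genes were called in SCC6, 0.0168% (3 genes) in SCC1 and 0.0% in SCC25. The call was lost without SCC6 PBS replicate 1 (1.72, FDR = 0.113), SCC6 PBS replicate 2 (1.21, FDR = 0.0906) or SCC6 cetuximab replicate 1 (1.12, FDR = 0.203). In SCC25 the treated samples (10.2 and 13.5 CPM) overlapped the untreated ones (12.6 and 10.4 CPM), and in SCC1 the treated samples (0.230 and 0.194 CPM) lay below the untreated ones (0.252 and 0.346 CPM) without overlap (-0.51 ± 0.38, FDR = 0.82). The difference between lines in the change of CDKN1C did not pass (interaction FDR = 0.39, with the block FDR = 0.062), although DESeq2 called it (FDR = 0.037). Its neighbour KCNQ1OT1 was also higher in treated SCC6 (76.0 and 46.5 CPM after 23.8 and 32.2 CPM, FDR = 0.04), whereas PHLDA2, another imprinted gene of 11p15, was lower (30.9 and 48.8 CPM after 131 and 97.8 CPM, FDR = 0.03). These calls were lost in 8 and 4 of the 12 fits that left out a sample (FDR from 0.0512 to 0.298 and from 0.0512 to 0.237).

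In SCC25 no gene was called by edgeR in the fit without the block, with 1041 genes at an unadjusted p below 0.05, while 128 were called with no filter on low counts, 175 with the block and 101 by DESeq2. With the replicate block the shares of called genes were 4.45% in SCC1, 20.1% in SCC6 and 0.978% in SCC25, and 2, 2 and 1 of the 9 genes were among them. No gene passed the interaction test (0.0%, 1318 genes at an unadjusted p below 0.05), and 1.29% passed with the block. DESeq2 called 276. None of the 9 genes passed in either edgeR fit, so that no difference between the lines in the response of these genes was shown by edgeR.

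The cyclins did not pass any cetuximab test over all cells, with or without the block. CCND1 was at 586 and 528 CPM in treated SCC1 after 463 and 449 CPM. In treated SCC25 it was at 1256 and 1548 CPM after 889 and 959 CPM, and in SCC6 at 306 and 301 CPM after 332 and 291 CPM. The change across lines was 0.28 ± 0.12 (FDR = 0.19), and that in SCC25 0.60 ± 0.17 (FDR = 0.59, with the block FDR = 0.053). Scaled by library size alone, which moved the median of all genes in SCC6 by 0.23, CCND1 in SCC6 was 0.19 in place of -0.04. CCND2 was at 40.7 and 63.1 CPM in treated SCC25 after 28.5 and 23.0 CPM, and at 31.1 and 21.8 CPM in treated SCC1 after 36.1 and 28.0 CPM (across lines 0.44 ± 0.27, FDR = 0.39). CCND3 (-0.03 ± 0.13, FDR = 0.93) and CCNE1 (0.16 ± 0.19, FDR = 0.68) had values across lines below their SE. CDKN1B, the remaining inhibitor, had treated values from 14.4 to 22.0 CPM and untreated values from 15.8 to 25.5 CPM (-0.11 ± 0.11, FDR = 0.61).

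**Figure D3:**
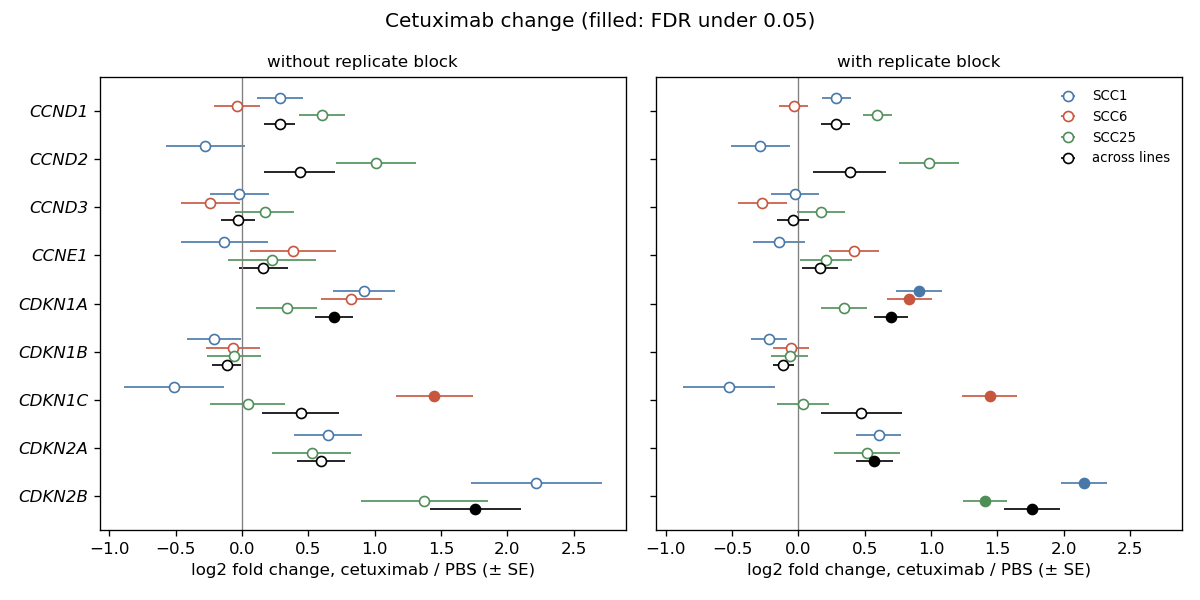
Fitted log2 fold change of cetuximab over PBS with its SE for each of the 9 genes, in each line and across lines, in the fit without (left) and with (right) the replicate block, with filled points for FDR below 0.05 and no point where a group had counts at or near 0. On the left the filled points are CDKN1A and CDKN2B across lines and CDKN1C in SCC6, and no filled point lies below 0 on either side.

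MKI67 and TOP2A, which mark proliferating cells, moved in the same samples. After each cell was thinned to 15000 UMIs, the share of cells with a UMI of either gene was 70.1% and 68.0% in untreated SCC1 and 25.5% and 47.8% with cetuximab, 65.5% and 71.5% against 51.5% and 57.4% in SCC6, and 67.6% and 47.9% against 47.5% and 28.5% in SCC25. The members were therefore also compared between both classes of cells of one sample, and the effect of cetuximab was measured in each class. Cells with exactly 1 UMI, near the limit between the classes, were 6.82% to 15.2% of a sample.

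Within samples, 7 of the 9 genes differed between the classes, where 55.1% of all genes did. This comparison was not refitted with a sample left out, so no lost calls of that kind could be seen. CDKN2B was lower in positive cells in all 8 samples where it could be compared, with a ratio of positive to negative cells from 0.276 to 0.410 (log2 -1.47 ± 0.06, FDR = 5.6e-11). CDKN1A was lower in 12 of 12 samples, with ratios from 0.641 to 0.945 (-0.44 ± 0.05, FDR = 1.3e-06). CDKN1C (-0.68 ± 0.10, FDR = 1.3e-05), CCND1 (-0.27 ± 0.05, FDR = 0.0001) and CCND2 (-0.27 ± 0.10, FDR = 0.024) were lower in positive cells as well. CCND1 was lower in 12 of 12 samples and CDKN1C in 11. CDKN1B went the other way from CDKN1A and CDKN1C and was higher in the positive cells of all 12 samples, with ratios from 1.25 to 1.84 (0.55 ± 0.05, FDR = 3.5e-08). CCND3 differed in direction from the other D cyclins, being higher in positive cells of 11 samples (0.25 ± 0.05, FDR = 0.00032). CCNE1 (0.30 ± 0.14, FDR = 0.08) and CDKN2A (-0.24 ± 0.10, FDR = 0.056) did not pass.

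**Figure D4:**
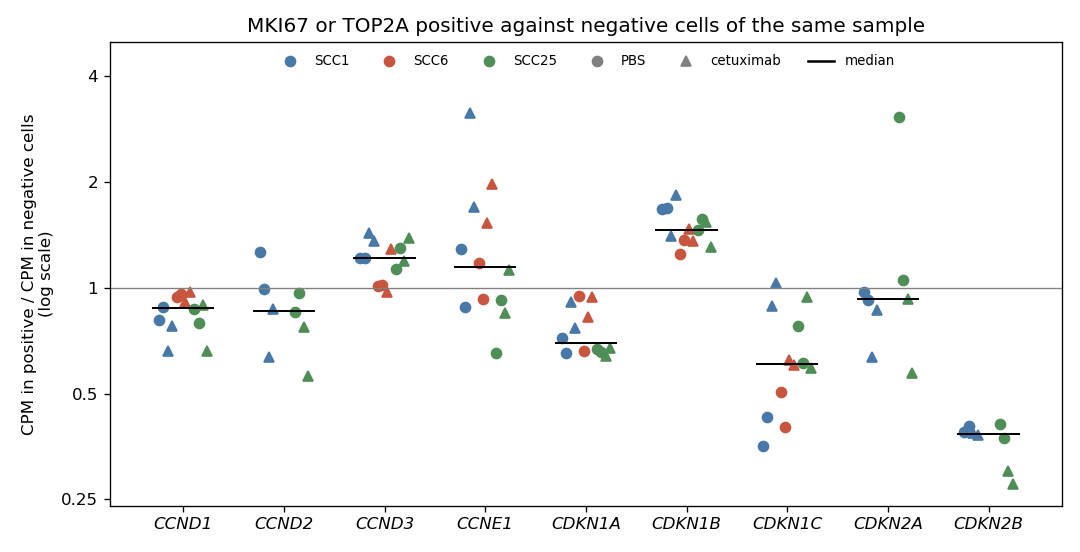
Ratio of the level in MKI67 or TOP2A positive cells to that in negative cells of the same sample (log axis) for each gene, with colours for lines, circles for PBS, triangles for cetuximab and a bar at the median. A sample is shown where both classes held more than 3 UMIs. All points of CDKN2B and CDKN1A lie below 1 and all points of CDKN1B above 1.

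Among the negative cells, 5.58% of 16185 genes changed with cetuximab across lines (13.7% with the block), and CDKN2B rose by 1.5 ± 0.29 (FDR = 0.023). MKI67 and TOP2A, which at full depth were still counted in the negative cells, were themselves called lower there with cetuximab (2 of 2, median -1.09), so that the class was not alike in treated and untreated samples, and the part of this in the change of CDKN2B was not tested. In these cells it was at 150 and 94.1 CPM in treated SCC1 after 42.1 and 30.4 CPM, and at 86.3 and 148 CPM in treated SCC25 after 32.6 and 66.1 CPM. This call was lost without SCC1 PBS replicate 1 (FDR = 0.055), SCC1 PBS replicate 2 (FDR = 0.0695), SCC1 cetuximab replicate 1 (FDR = 0.0577), SCC25 PBS replicate 1 (FDR = 0.0517) or SCC25 cetuximab replicate 2 (FDR = 0.0533). CDKN1A in negative cells was 0.53 ± 0.15 (FDR = 0.055, with the block 0.54 and FDR = 0.027), and CDKN2A 0.83 ± 0.24 (FDR = 0.072, with the block 0.78 and FDR = 0.043).

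Among the positive cells, 0.53% of 16793 genes were called (2.25% with the block) and none of the 9 genes was. CDKN2B was 1.23 ± 0.29 in these cells (FDR = 0.075, with the block FDR = 0.03). CDKN1A was 0.69 ± 0.15 (FDR = 0.06, with the block FDR = 0.043). CCNE1 was 0.50 ± 0.17 (FDR = 0.2, with the block FDR = 0.043), beside -0.24 ± 0.22 in negative cells (FDR = 0.58). The difference between the classes in the effect of cetuximab was not tested.

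The share of single cells with a UMI was taken at 15000 UMIs per cell. CCND1 was found in 91.9% to 99.9% of cells of every sample. CDKN1A was found in 36.5% and 34.8% of untreated SCC1 cells and in 60.9% and 51.3% of treated ones (95% exact binomial interval of the first treated value 57.7% to 64.0%), in 39.4% and 53% against 68.0% and 75.6% in SCC6, and in 46.3% and 53.9% against 64.3% and 58.1% in SCC25. CDKN2B was found in 27.5% and 22.7% against 70.3% and 50.6% of SCC1 cells and in 21.5% and 38.8% against 40.9% and 63.4% of SCC25 cells. The treated and untreated shares of both genes overlapped in none of these lines, which unchanged genes can also show with so few samples. Without thinning, the shares of CDKN1A were 58.8% to 95.7%. PTPRC, CD3E, ALB and HBB, genes that these lines should lack, were found in at most 0.151% of cells at the same depth. CCND2 in SCC6 (0.0377% to 0.123%) was no higher than this highest share over all samples, whereas CDKN2A in SCC25 (0.719% to 1.2%) was above it. Within SCC6, without thinning, CCND2 had 16 UMIs, beside 2 of PTPRC, 2 of CD3E and 0 of ALB and HBB. CDKN1C in SCC1 was at 0.213% to 0.732%. The lowest rests on 2 of 938 cells with an interval (0.0258% to 0.768%) that covers the same highest share. Within SCC1, without thinning, CDKN1C had 83 UMIs, beside 2 of CD3E and 0 of PTPRC, ALB and HBB.

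Cells with both CDKN1A and CDKN2B were 13.1% and 10.3% of untreated SCC1 cells and 44.0% and 29.0% of treated ones. In SCC25 they were 11.5% and 23.1% without and 29.0% and 38.7% with cetuximab. Cells with neither were 49.1% and 52.8% of untreated and 12.9% and 27.1% of treated SCC1 cells, for which no test was made. The share with both was 1.03 to 1.30 times the product of the single shares in the 8 samples of SCC1 and SCC25.

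**Figure D5:**
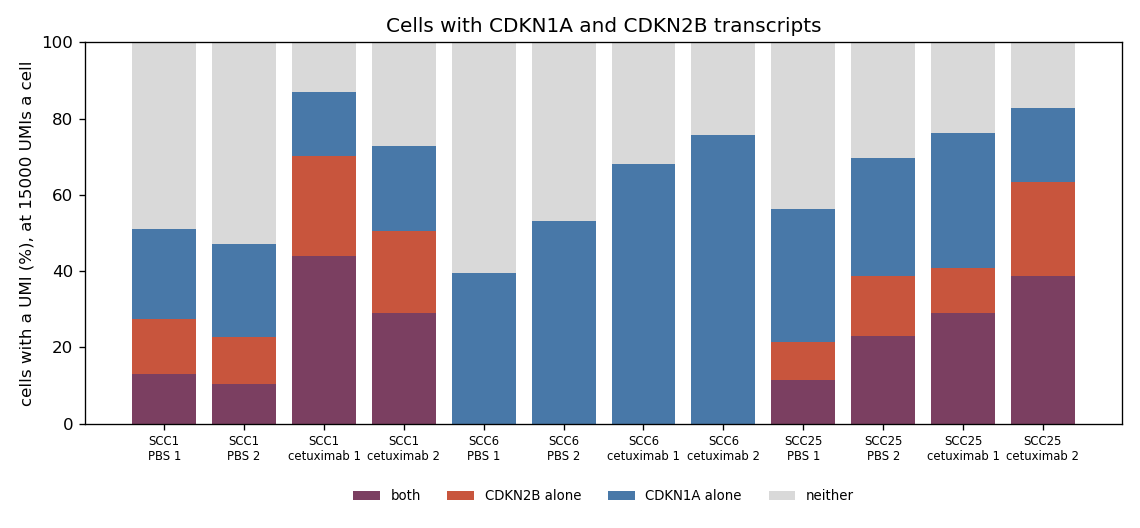
Share of cells in percent (linear axis from 0) with UMIs of both CDKN1A and CDKN2B, of CDKN2B alone, of CDKN1A alone or of neither in each of the 12 samples, after thinning to 15000 UMIs per cell. Cells with both make up 44.0% of SCC1 cetuximab replicate 1 and CDKN2B is all but missing in SCC6.

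The spread between cells was described by the variance over the mean of the thinned UMIs, which is near 1 where counting alone spreads the values and which grows with the level. CDKN1B stayed between 1.03 and 1.18 in all 12 samples and CCND3 between 1.11 and 1.40. CDKN1A was between 1.49 and 2.1 and CDKN2B between 1.70 and 3.49 in SCC1 and SCC25. CCND1, which was counted in nearly every cell, reached 15 in SCC25 cetuximab replicate 2, where a single cell held up to 173 UMIs, and was lowest in SCC6 with 1.82 to 3.17.

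The other genes of the pathway were read as lists, beside 3.67% of all genes called across lines and 11.6% with the block. Of 13 G1 kinases and partners, none was called across lines, 9 had values below 0 and the median change was -0.14. With the block, CKS1B, an adaptor of CDKs and of p27 degradation (-0.56 ± 0.16, FDR = 0.0742, with the block 0.0266), and the INK4 gene CDKN2D (-0.32 ± 0.10, FDR = 0.105, with the block 0.0468) were called lower. CDK4 was -0.27 ± 0.12 (FDR = 0.245) and CDK6 0.25 ± 0.19 (FDR = 0.499). Of 13 RB and E2F genes, TFDP1, the dimer partner of E2F factors (-0.47 ± 0.11, FDR = 0.0347), and E2F8 were called lower and none higher. The TFDP1 call was lost with library size alone (-0.38, FDR = 0.104) and in 10 of the 12 fits that left out a sample (FDR from 0.0578 to 0.0895), all but those without SCC25 PBS replicate 2 or SCC25 cetuximab replicate 1. E2F8, a repressor of the family, was -0.66 ± 0.15 (FDR = 0.0363), and its call was lost with library size alone and in 10 of these 12 fits too (FDR from 0.0512 to 0.0833), all but those without SCC1 cetuximab replicate 2 or SCC6 PBS replicate 1. E2F4 was -0.33 ± 0.11 (FDR = 0.105), E2F1 -0.39 ± 0.18 (FDR = 0.23) and TFDP2 0.15 ± 0.14 (FDR = 0.606).

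All 17 E2F target genes of S phase had values below 0 across lines, with a median of -0.51. Yet none was called without the block, where 3.67% of all genes were, and 8 were called lower with it, where 11.6% were. Among them CDT1, which loads the replicative helicase, was -0.68 ± 0.18 (FDR = 0.053, with the block 0.0173), and the helicase subunit MCM4 was -0.48 ± 0.15 (FDR = 0.0849, with the block 0.0197). The thymidylate synthase gene TYMS was -0.54 ± 0.20 (FDR = 0.153, with the block 0.0332) and GINS2, a subunit of the replicative helicase, -0.51 ± 0.20 (FDR = 0.175). In negative cells, where 5.58% of all genes were called, 6 of the 17 were called lower (median -0.77). In positive cells, where 0.53% were, none was called (median -0.02), and the difference between the classes was not tested.

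Of 21 tested p53 target genes, 3 were called higher across lines and none lower, where 3.67% of all genes were called. Of the 21, 12 had values above 0 and the median was 0.06. With the block 4 were called higher and 2 lower (CCNG1 and FDXR), where 11.6% of all genes were called. In SCC6, where 3.81% of all genes were called, TP53INP1 was called higher and PLK3 lower (39.4 and 22.7 CPM in PBS, 4.71 and 13.6 CPM with cetuximab, FDR = 0.0488). With the block 4 were called higher and 5 lower in SCC6, where 20.1% of all genes were called. The PLK3 call was lost with library size alone and in 10 of the 12 fits that left out a sample (FDR from 0.0581 to 0.315), and that of TP53INP1 without SCC6 PBS replicate 1 or SCC6 cetuximab replicate 1 (FDR = 0.215 and 0.191). The genes called across lines were TP53I3, an oxidoreductase gene (1.04 ± 0.19, FDR = 0.0166), ZMAT3 (0.68 ± 0.16, FDR = 0.0426) and TP53INP1 (1.34 ± 0.28, FDR = 0.0243). TP53I3 was at 101 and 66.0 CPM in treated SCC1 after 41.5 and 40.9 CPM. The call of ZMAT3 was lost in 10 of the 12 fits that left out a sample (FDR from 0.0624 to 0.111), all but those without SCC25 PBS replicate 1 or SCC25 cetuximab replicate 2. That of TP53INP1 was lost in 4 of the 12, without SCC1 PBS replicate 2, SCC1 cetuximab replicate 1, SCC6 PBS replicate 2 or SCC6 cetuximab replicate 2 (FDR from 0.0509 to 0.0693), and that of TP53I3 in none. GADD45A was 0.51 ± 0.23 (FDR = 0.223). CCNG1 was -0.45 ± 0.17 (FDR = 0.16) and was called lower with the block (FDR = 0.0495). Of the 4 neighbours of CDKN2A and CDKN2B, CDKN2B-AS1 (1.13 ± 0.22, FDR = 0.021) and DMRTA1 (1.05 ± 0.25, FDR = 0.041) rose across lines, calls lost in 5 (FDR from 0.0501 to 0.0664) and 10 (FDR from 0.0537 to 0.112) of the 12 fits that left out a sample. In SCC6, where CDKN2A had no UMI and CDKN2B 1, CDKN2B-AS1 was at 2.23 and 2.29 CPM after 0.656 and 0.849 CPM (FDR = 0.034), DMRTA1 at 14.7 and 13.4 CPM after 3.94 and 3.90 CPM (FDR = 0.02) and MTAP at 75.2 and 91.7 CPM after 46.3 and 44.5 CPM (FDR = 0.042). With a sample left out these SCC6 calls were lost in 8, 4 and 10 of 12 fits. The 8 tested neighbours of CCND1 included no call across lines.

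The genes whose level, relative to the mean of each line, was most like that of a member were read over the 12 samples, among 7558 genes with a mean of at least 10 CPM. They share libraries, treatment and depth with it, and the values describe these samples. CDKN1A was most like HPS5 (r = 0.97), TP53I3 (r = 0.97) and MICALL2 (r = 0.96). CDKN2B was most like UPK2 (r = 0.96), IFIT2 (r = 0.96) and RTP4 (r = 0.94), of which IFIT2 and RTP4 are genes known to be induced by interferon. CDKN2A was most like SLC17A5 (r = 0.95), LAYN (r = 0.95) and ZNFX1 (r = 0.92). It was at 0 in SCC6 and at no more than 0.684 CPM in SCC25, so its values rest mostly on the SCC1 samples. CDKN2B and CCND2 were near 0 in SCC6, so theirs rest mostly on SCC1 and SCC25. CCND1 was most like RDH13 (r = 0.94), RAB3IP (r = 0.93) and SAMD4A (r = 0.91), and CCND2 less so with SCAF1 (r = 0.80) and RAI14 (r = 0.76). CCND3 was most like PLAU (r = 0.94), TMEM206 (r = 0.92) and SBDS (r = 0.91), and CDKN1B like TAZ (r = 0.90), SEPT9 (r = 0.89) and EIF1B (r = 0.89).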

How the data were processed

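UMI counts per gene and cell, deposited by the authors as 1 table per line, were the starting point. Per the labels and the study's methods, libraries were made with 10x Chromium 3′ v2 chemistry, the submitters' processing notes name Cell Ranger and GRCh38, and cells were pre-processed with Monocle. How shared or antisense reads were counted, and with which Cell Ranger version, is not given in the sources used here. The counts were raw, 33538 rows under 33514 symbols, of which 25899 had a UMI, in 23914 cells, and all cells were used. No doublet caller was run. Samples of one group shared 3 to 10 cell barcodes, and others 1 to 13.

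Groups and replicate numbers came from the sample titles. Whether replicates are separate cultures is not clear, so p-values may measure a technical spread. The members and gene lists were chosen with earlier results of these data known. UMIs were summed per sample, because cells are not replicates. The study's own tests on cells were not used. edgeR 4.0.16 (R 4.3.3) was fitted over the 6 groups with TMM factors, filterByExpr and the quasi-likelihood test, with line and treatment as terms for the change across lines and the sample as a block for the classes of cells. SE was derived from the fold change and F. FDR is the Benjamini-Hochberg adjusted p over all genes tested. DESeq2 1.42.0 was an alternative. On simulated counts with the real means, edgeR recovered 89%, 91% and 82% of genes changed by a factor of 4 in SCC1, SCC6 and SCC25, and 11%, 10% and 6% of those changed by a factor of 2. Changes were set within a line, in genes with a mean above 10 CPM. The fits across lines and of the classes were not simulated.

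Same-numbered samples of a line deviated together (r = 0.32, 0.31 and 0.57 in SCC1, SCC6 and SCC25 over 17897 genes), so a blocked fit is given where it changes a call. For shares, cells were thinned to 15000 UMIs, which left out 851 cells. A floor of 3 UMIs was used for counts of 0, and intervals and floors cover counting error alone. All members were named in every comparison, with at most 4 genes per list, those of the lowest p across lines among genes with a mean of at least 10 CPM. The neighbours of a member on the chromosome were named at a mean of at least 1 CPM, and for each member at 10 CPM the 3 most similar genes, of which 1 is not reported here. E2F8, TP53INP1, FDXR and PLK3 were named after their values were seen. Alternatives were other size factors, no filter on low counts, cells of most UMIs or over 20% mitochondrial UMIs left out, each sample left out, and, added after the data were seen, library size alone. The comparison between the classes of cells was not refitted with a sample left out.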

Additional observations from a re-analysis of the deposited data

How the results depend on the processing

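The counts of genes called moved with the fit more than the values of the members did. Across lines 656 genes were called, 1043 with no filter, 1771 with DESeq2, 2073 with the replicate block and 202 to 596 with a sample left out. In SCC1 3 were called, 243 with no filter, 274 with DESeq2, 797 with the replicate block and 0 to 6 with a sample left out. In SCC6 682 were called, 1233 with no filter, 1671 with DESeq2, 3589 with the replicate block and 11 to 749 with a sample left out. In SCC25 0 were called, 128 with no filter, 101 with DESeq2, 175 with the replicate block, 1 without the 5% of cells with most UMIs and 0 to 1 with a sample left out. The interaction gave 0, 248 with no filter, 276 with DESeq2, 230 with the replicate block and 0 to 14 with a sample left out. With a PBS sample left out, untreated lines gave 4707 to 7491 calls (SCC1 and SCC25, 7297 in full), 4754 to 7328 (SCC1 and SCC6, 7190) and 5313 to 6847 (SCC6 and SCC25, 7313). Negative cells gave 903, 2224 with the replicate block and 326 to 807 with a sample left out, and positive cells 89, 378 with the replicate block and 7 to 133.

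Of the alternatives to the fitted changes of the members and named genes, 1801 kept direction and side of the threshold, 178 lost a call, 41 gained one and 38 reversed the sign, none of a called value. With library size alone the sign turned for CCND1 in SCC6 (0.19), CCND3 across lines (0.074), CCND3 in SCC1 (0.029), CDKN1B in SCC6 (0.17), CDKN1B between untreated SCC1 and SCC6 (0.07). With 1 sample left out it turned in CCND1 in SCC6 (-0.14 to 0.051), CCND2 in positive cells (-0.16 to 0.25), CCND3 across lines (-0.087 to 0.067), CCND3 in SCC1 (-0.12 to 0.064), CCND3 in SCC6 (-0.60 to 0.045), CCND3 in negative cells (-0.096 to 0.03), CCNE1 in SCC1 (-0.36 to 0.046), CCNE1 in SCC6 (-0.002 to 0.91), CCNE1 in SCC25 (-0.005 to 0.43), CDKN1A between untreated SCC6 and SCC25 (-0.39 to 0.057), CDKN1B in SCC6 (-0.22 to 0.096), CDKN1B in SCC25 (-0.20 to 0.079), CDKN1B in negative cells (-0.056 to 0.096), CDKN1B in positive cells (-0.042 to 0.044), CDKN1C in SCC25 (-0.18 to 0.25), CDKN1C in negative cells (-0.04 to 0.32) and CDKN2B between untreated SCC1 and SCC25 (-1.10 to 0.062), where the lowest and highest values are given. The cause was not tested. The replicate block changed no call of a member other than those given in the report. Without thinning, 50 of 54 group shares of cells moved by more than their SD. With 2 samples a group, changes by a factor of 2 within a line were seldom recovered in simulated counts. A missed threshold within a line thus does not show that a gene stayed the same. The simulation did not cover the other fits or genes of low level, for which a missed threshold does not show it either.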
